A study of Danio rerio with 85 samples.

Results

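The DNA replication and S phase genes described here were chosen as a list of 49 gene symbols covering the machinery that licenses, opens, copies and repackages DNA, with the enzymes that supply its nucleotides. Of these symbols, 47 were present among the gene names of the single heart tables, and they stood for 48 genes, because the symbol rrm2 was carried by 2 Ensembl genes (ENSDARG00000020711 and ENSDARG00000078069). These 48 genes, out of 12258 in any heart table and 30055 in any RNA table, are the members. All 48 were also in the whole embryo table, 38 were in the table of hearts at 1 day post fertilization (dpf), and all 48 were in the tables at 2 and 3 dpf. The symbol dut matched no gene in the tables, and tk1 was present in whole embryos only. The list was drawn up with earlier results of these data known, and a gene entered a heart table only if it was detected in a minimum share of the hearts of that age, so that a gene detected in wildtype hearts alone could enter. The numbers of members that changed are therefore a description of these genes and no independent evidence, and no test was made over the list as a whole.

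Before a cell divides, the origin recognition complex (ORC) marks the sites where copying can begin, and Cdc6 and Cdt1 load the ring-shaped MCM helicase there. In S phase Cdc45, the GINS complex and Mcm10 turn the helicase on, RPA covers the opened strands, primase and DNA polymerase alpha lay down the first stretch, and the RFC complex loads the sliding clamp PCNA, on which polymerases delta and epsilon continue. Many of these genes are transcribed mainly in cells that are about to enter or are in S phase, and PCNA and the MCM proteins are widely used as markers of proliferating cells.

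Zebrafish homozygous for the ibl31 allele of rnf2, which carry a deletion with a premature stop codon in the gene for the catalytic subunit of Polycomb repressive complex 1 (PRC1), were compared with wildtype fish. The whole embryo data at 3 dpf comprised 7 rnf2-/- libraries, from embryos of TU/TLF mixed background picked by their phenotype, and 8 wildtype libraries, from embryos of the TLF strain, so that genotype and strain label cannot be told apart there. Each embryo library was made from a pool of embryos. Single hearts were dissected from embryos of TU/TLF mixed background that carried a myl7:GFP transgene, in which a promoter active in heart muscle drives GFP, in both genotypes: 8 rnf2-/- and 9 rnf2+/+ hearts at 1 dpf, 9 and 13 hearts at 2 dpf, and 9 and 10 hearts at 3 dpf. Every heart was 1 animal, and nothing in the data tells the clutches apart, so the p-values measure the spread between these hearts and these pools.

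Depth differed widely between tissues and ages. The embryo libraries held 6251467 to 11036762 reads in mutants and 4711185 to 12585927 in wildtypes. Hearts held 2453 to 83738 unique molecular identifiers (UMIs) in mutants and 4009 to 51621 in wildtypes at 1 dpf, 46943 to 109942 and 23523 to 81685 at 2 dpf, and 49841 to 93653 and 27309 to 82308 at 3 dpf. The rnf2 mRNA was at 116.5 to 153.4 normalized counts in mutant embryos and at 496.6 to 698.6 in wildtype embryos, and at medians of 0.557 in mutant and 5.19 in wildtype hearts at 3 dpf. These hearts overlapped, at 0 to 4.18 in mutants and 0 to 9.86 in wildtypes. A normalized count is the read or UMI count divided by the size factor of its library. At 1 dpf mutant heart 3 stood apart from the other mutant hearts with the highest level of the members per 10000 UMIs, and among the embryos wildtype library 11 stood apart in the rrm2 genes. Values that rest on these libraries are given for each library.

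As a first view, the UMIs of the 38 members present at every age were summed in each heart and expressed per 10000 UMIs of the genes in all 3 heart tables. At 1 dpf the summed level was 8.78 in the lowest, 23.3 in the median and 103.4 in the highest mutant heart, against 15.6, 39.7 and 58.3 in wildtype hearts, and the groups overlapped. The highest value was that of mutant heart 3. At 2 dpf the level was 20.3, 27.03 and 38.8 in mutant hearts, against 24.8, 34.3 and 55.5 in wildtype hearts, again with overlap. At 3 dpf it was 6.49, 10.2 and 10.95 in mutant hearts, against 39.01, 49.2 and 60.9 in wildtype hearts. Every mutant heart was then below every wildtype heart, by a wide gap. Summed over hearts, the 48 members took 563 UMIs, or 9.23 per 10000, in mutants at 3 dpf, against 2264 UMIs, or 50.0 per 10000, in wildtypes. The mean of the summed normalized counts was 18.6% of the wildtype mean. In tissue samples of this kind, fewer cycling cells and less mRNA in each cell cannot be told apart.

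**Figure D1:**
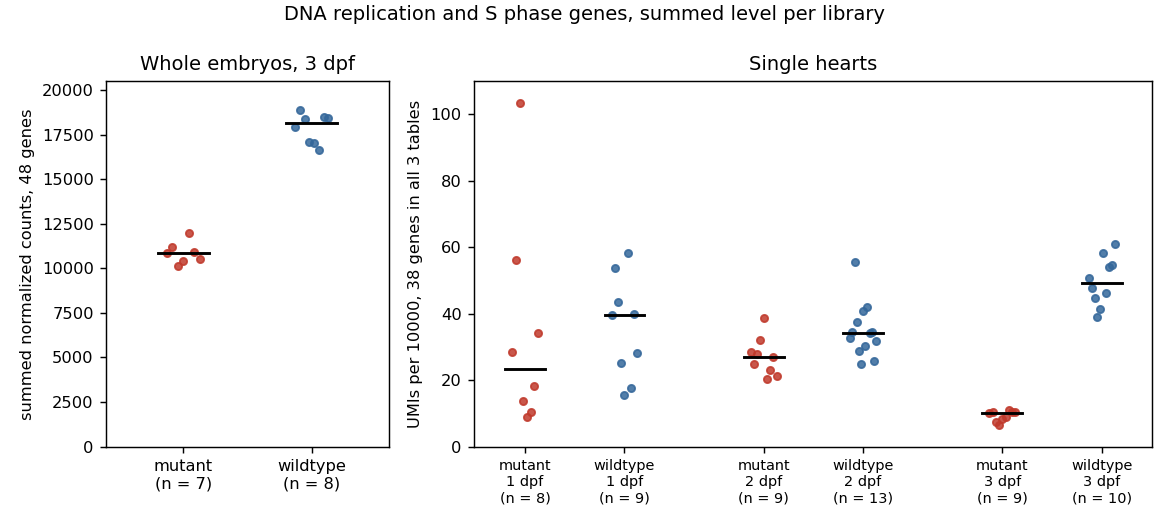
Summed level of the replication genes in each library. Each point is 1 heart or 1 embryo pool, the bar is the group median, and mutants stand left of wildtypes. The heart panel gives UMIs per 10000 at 1, 2 and 3 dpf, where the groups overlap at 1 and 2 dpf and lie apart at 3 dpf with mutant hearts at 6.49 to 10.95 and wildtype hearts at 39.01 to 60.9. The embryo panel gives summed normalized counts, with mutants at 10127 to 11979 and wildtypes at 16613 to 18894.

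At 1 dpf no member differed between the genotypes at an adjusted p under 0.01 (limma), the threshold used for hearts. Of 38 members tested, 0 had an unadjusted p under 0.05, and edgeR and DESeq2 on the recovered counts called 0 as well. The background was low too: 0% of all genes were called higher and 0.0872% lower in mutant hearts. The median log2 fold change of the members was -0.15, against -0.01 for all 6877 genes. The clamp gene pcna was at 0 in the lowest, 3.69 in the median and 22.04 normalized counts in the highest mutant heart, against 0, 7.67 and 13.8 in wildtype hearts. Its log2 difference was -0.54 ± 0.47 (SE). The medians of the other 37 members were at most 3.21 normalized counts in either genotype, so that even large differences could go undetected at this depth. For example, the mutant mean was 22.6% of the wildtype mean for rpa1 and 477.9% for orc6, and neither was called. The lowest adjusted p of any member was 0.97 (limma).

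At 2 dpf again no member of 48 passed the threshold. There were 4 at an unadjusted p under 0.05, with orc1, pcna and pola2 lower and orc2 higher in mutant hearts, which was 8.33% of the members, against 9.54% of all genes. The lowest adjusted p was 0.29 (limma). With edgeR and with DESeq2, 0 members passed. Among all genes, 0.381% were called higher and 0.254% lower. The members' median log2 fold change was -0.17, with 31 values below 0 and 17 above, against a median of 0.10 for all genes. All 6 MCM genes and all 5 nucleotide supply genes had values below 0, between -0.42 and -0.18 in the first set and between -0.35 and -0.19 in the second, none of which passed the test. For pcna the lowest, median and highest normalized counts were 23.3, 31.5 and 43.2 in mutant hearts, against 26.05, 40.99 and 54.9 in wildtype hearts. The log2 difference was -0.38 ± 0.15 (SE, limma, adjusted p = 0.34), and the hearts of both groups overlapped over most of their range.

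At 3 dpf the replication genes were lower in mutant hearts. Of 48 members, 21 were lower and 0 higher at an adjusted p under 0.01 (limma), where 2.4% of all genes were lower and 2.96% higher. The log2 fold changes of all 48 were below 0, from -2.91 to -0.36 with a median of -1.07, against a median of 0.08 for all 11221 genes, and 40 members had an unadjusted p under 0.05, as did 21.6% of all genes. EdgeR called 26 and DESeq2 23, in both cases with the 21 among them. After every heart was thinned to the depth of the shallowest one, 10 of the 21 passed: the 6 MCM genes, pcna, rrm1 and both rrm2 genes. The calls of cdc6, pola2, rfc5 and tyms were lost when any of several single hearts was left out. In 9 members every mutant heart lay below every wildtype heart, as was so for 0.508% of all genes. These fold changes are on the scale of log2 (normalized count + 1), which understates the change of genes with few UMIs. The genes mcm10 and chaf1b had no UMI in any mutant heart, and so passed the detection filter through wildtype hearts alone. With these 2 genes set to a floor of 3 UMIs over the mutant group, the median was -1.19, which mixes values with and without the added 1. The medians of edgeR and DESeq2, given with the alternatives below, were larger decreases. The gene chaf1b was among the 21. Of the other called genes, orc3 and tyms had 2 UMIs each over the mutant hearts, cdc6 and pola2 3 each and pola1 4. These were too few to pass the detection filter without wildtype hearts. The same held for mcm3 and orc4, which were at 0 in the median mutant heart, and for several members that were not called. The calls of these genes are a description only. All the complexes were at a lower level, and their summed normalized counts in mutant hearts were between 10.8% (ORC) and 25.4% (RPA) of the wildtype mean.

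The MCM helicase is the motor that unwinds DNA ahead of the fork. All 6 of its subunit genes were called lower, with a median log2 fold change of -2.19, and their summed level was 15.3% of the wildtype mean. The mcm4 mRNA was at 0, 0.571 and 2.23 normalized counts in the lowest, median and highest mutant heart, against 3.79, 10.7 and 17.8 in wildtype hearts. Its mean was 0.795 ± 0.920 in mutant and 11.8 ± 4.22 in wildtype hearts (SD, n = 9 and 10), a log2 fold change of -2.91 ± 0.32 (SE, limma, adjusted p = 6.1e-13). No mutant heart reached the level of the lowest wildtype heart. For mcm2 the values were 0, 0.817 and 3.13 in mutant hearts, against 6.53, 11.9 and 17.2 in wildtype hearts. The fold change was -2.79 ± 0.31 on the log2 scale (limma, adjusted p = 8.3e-13), and 3 of 9 mutant hearts had no mcm2 UMI at all. The subunit gene mcm7 was less reduced, with 0.817, 2.85 and 6.45 in mutant hearts, against 9.14, 15.3 and 22.5 in wildtype hearts. Its log2 fold change was -1.90 ± 0.28 (limma, adjusted p = 2.9e-08), and the groups did not overlap. The remaining subunits mcm3, mcm5 and mcm6 had log2 fold changes of -2.29, -2.09 and -1.86, and of these only mcm3 had a mutant heart above the lowest wildtype heart.

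The genes that start replication had few UMIs, and on the log2 (normalized count + 1) scale their fold changes were closer to 0. Their summed levels were nevertheless 10.8% of the wildtype mean for ORC and 14.5% for the licensing factors. These sums hold genes that needed wildtype hearts to pass the detection filter, such as orc1, orc5 and orc6 with 1 UMI each over the mutant hearts. Of the 6 ORC genes orc4 and orc3 were called lower. The orc4 mRNA was at 0, 0 and 2.23 normalized counts in the lowest, median and highest mutant heart, against 1.32, 4.50 and 7.00 in wildtype hearts, with a log2 fold change of -1.79 ± 0.37 (SE, limma, adjusted p = 0.00014). Its groups overlapped through mutant heart 42 alone, in which orc4 reached 2.23, whereas the other mutant hearts had at most 0.717. The log2 fold change of orc3 was -1.49 ± 0.36 (limma, adjusted p = 0.0019), a call lost with a covariate for how many genes each heart had detected. The other 4 ORC genes had values of -1.03 to -0.36 and did not pass. Of the licensing genes, cdc6, whose product helps load the helicase, was at 0, 0 and 1.11 in mutant hearts, against 0, 2.93 and 5.35 in wildtype hearts, and its log2 fold change was -1.40 ± 0.37 (limma, adjusted p = 0.0048). Both groups held hearts with no cdc6 UMI. The values of cdt1 (-0.87) and of gmnn (-0.50), which codes for the Cdt1 inhibitor geminin, did not pass. None of the 4 genes of GINS, Cdc45 and Mcm10 passed either. The cdc45 mRNA was at 0, 0 and 1.43 in mutant hearts, against 0, 1.35 and 3.46 in wildtype hearts (log2 fold change -0.72 ± 0.35, limma, adjusted p = 0.21). For mcm10, 0 UMIs were counted over the 9 mutant hearts, against 11 over the 10 wildtype hearts. Against a floor of 3 UMIs over the mutant group, with the wildtype count taken as exact, its rate was 4.94-fold lower. Its adjusted p was 0.027 (limma), and it passed the detection filter through wildtype hearts alone.

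At the fork itself pcna fell furthest beyond the spread between hearts. It was at 5.52, 10.8 and 18.6 normalized counts in the lowest, median and highest mutant heart, against 36.2, 53.0 and 66.0 in wildtype hearts. The means were 10.9 ± 3.74 in mutant and 53.9 ± 10.2 in wildtype hearts (SD, n = 9 and 10), and the log2 fold change was -2.25 ± 0.19 (SE, limma, adjusted p = 9.8e-20). This was the lowest adjusted p of any member in hearts, and the groups lay far apart. The ligase gene lig1, whose product seals Okazaki fragments, was at 0, 0.919 and 1.63 in mutant hearts, against 1.31, 4.69 and 10.7 in wildtype hearts. It changed by -1.88 ± 0.35 on the log2 scale (limma, adjusted p = 2.0e-05), with a narrow overlap between the highest mutant and the lowest wildtype hearts. The flap endonuclease gene fen1, with -0.80, did not pass. The largest RPA subunit gene, rpa1, was at 0, 2.11 and 4.60 in mutant hearts, against 2.64, 7.90 and 11.8 in wildtype hearts. Its log2 fold change was -1.63 ± 0.32 (limma, adjusted p = 5.3e-05), and some mutant hearts reached into the wildtype range. The second subunit gene, rpa2, lay just outside the threshold (-1.30 ± 0.38, limma, adjusted p = 0.012), and rpa3 had -0.38.

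Of the 8 polymerase and primase genes, both subunits of polymerase alpha were called. Their log2 fold changes were -1.48 ± 0.37 for pola1 (SE, limma, adjusted p = 0.0025) and -1.29 ± 0.36 for pola2 (limma, adjusted p = 0.0089). The catalytic subunit gene of polymerase delta, pold1, lay just outside at -1.39 ± 0.39 (limma, adjusted p = 0.0101). The primase gene prim2 was at 0, 1.11 and 3.13 normalized counts in the lowest, median and highest mutant heart, against 1.32, 2.02 and 6.93 in wildtype hearts. Its log2 difference of -0.93 ± 0.37 did not pass (limma, adjusted p = 0.098), and the groups overlapped. In the RFC clamp loader only rfc5 of 5 genes was called, with 0, 0.817 and 1.67 in mutant hearts, against 0, 3.25 and 7.90 in wildtype hearts (log2 fold change -1.41 ± 0.37, limma, adjusted p = 0.0051). Hearts of both genotypes had no rfc5 UMI, and the other 4 RFC genes had values of -1.08 to -0.58.

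In nucleotide supply 4 of 5 genes were called, with a median log2 fold change of -1.95 and a summed level of 16.9% of the wildtype mean. The gene rrm1 codes for the large subunit of ribonucleotide reductase, which makes deoxynucleotides from ribonucleotides. It was at 0, 1.86 and 4.18 normalized counts in the lowest, median and highest mutant heart, against 7.13, 14.5 and 19.6 in wildtype hearts, a log2 fold change of -2.41 ± 0.30 (SE, limma, adjusted p = 1.7e-10). The groups did not overlap. Of the 2 genes for the small subunit, rrm2 ENSDARG00000020711 was at 0.703, 1.14 and 4.30 in mutant hearts, against 6.60, 13.6 and 22.5 in wildtype hearts (log2 fold change -2.51 ± 0.29, limma, adjusted p = 3.1e-12). The second, rrm2 ENSDARG00000078069, was at 0, 2.79 and 5.18 in mutant hearts, against 6.57, 12.7 and 20.3 in wildtype hearts (-1.95 ± 0.29, limma, adjusted p = 4.1e-08). Neither gene had a mutant heart within the wildtype range. Thymidylate synthase, tyms, was called with -1.31 ± 0.36 (limma, adjusted p = 0.0079), whereas the dihydrofolate reductase gene dhfr had -1.06 ± 0.37 (limma, adjusted p = 0.048) and was not.

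Behind the fork, both subunit genes of chromatin assembly factor 1, which places histones on new DNA, were called. The chaf1a mRNA was at 0, 1.71 and 2.79 normalized counts in the lowest, median and highest mutant heart, against 0, 7.37 and 12.8 in wildtype hearts, with a log2 fold change of -1.53 ± 0.35 (SE, limma, adjusted p = 0.00088). The overlap came from wildtype heart 17, with no chaf1a UMI, and wildtype heart 18, at 1.64. For chaf1b, 0 UMIs were counted over the 9 mutant hearts and 16 over the 10 wildtype hearts. Against a floor of 3 UMIs over the mutant group, with the wildtype count taken as exact, its rate was 7.19-fold lower (limma, adjusted p = 0.0026). It passed the detection filter through wildtype hearts alone, so this call is a description only. The histone mRNA binding gene slbp and the maintenance methylation genes uhrf1 and dnmt1 had log2 values of -0.996 to -0.63, of which none passed.

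**Figure D2:**
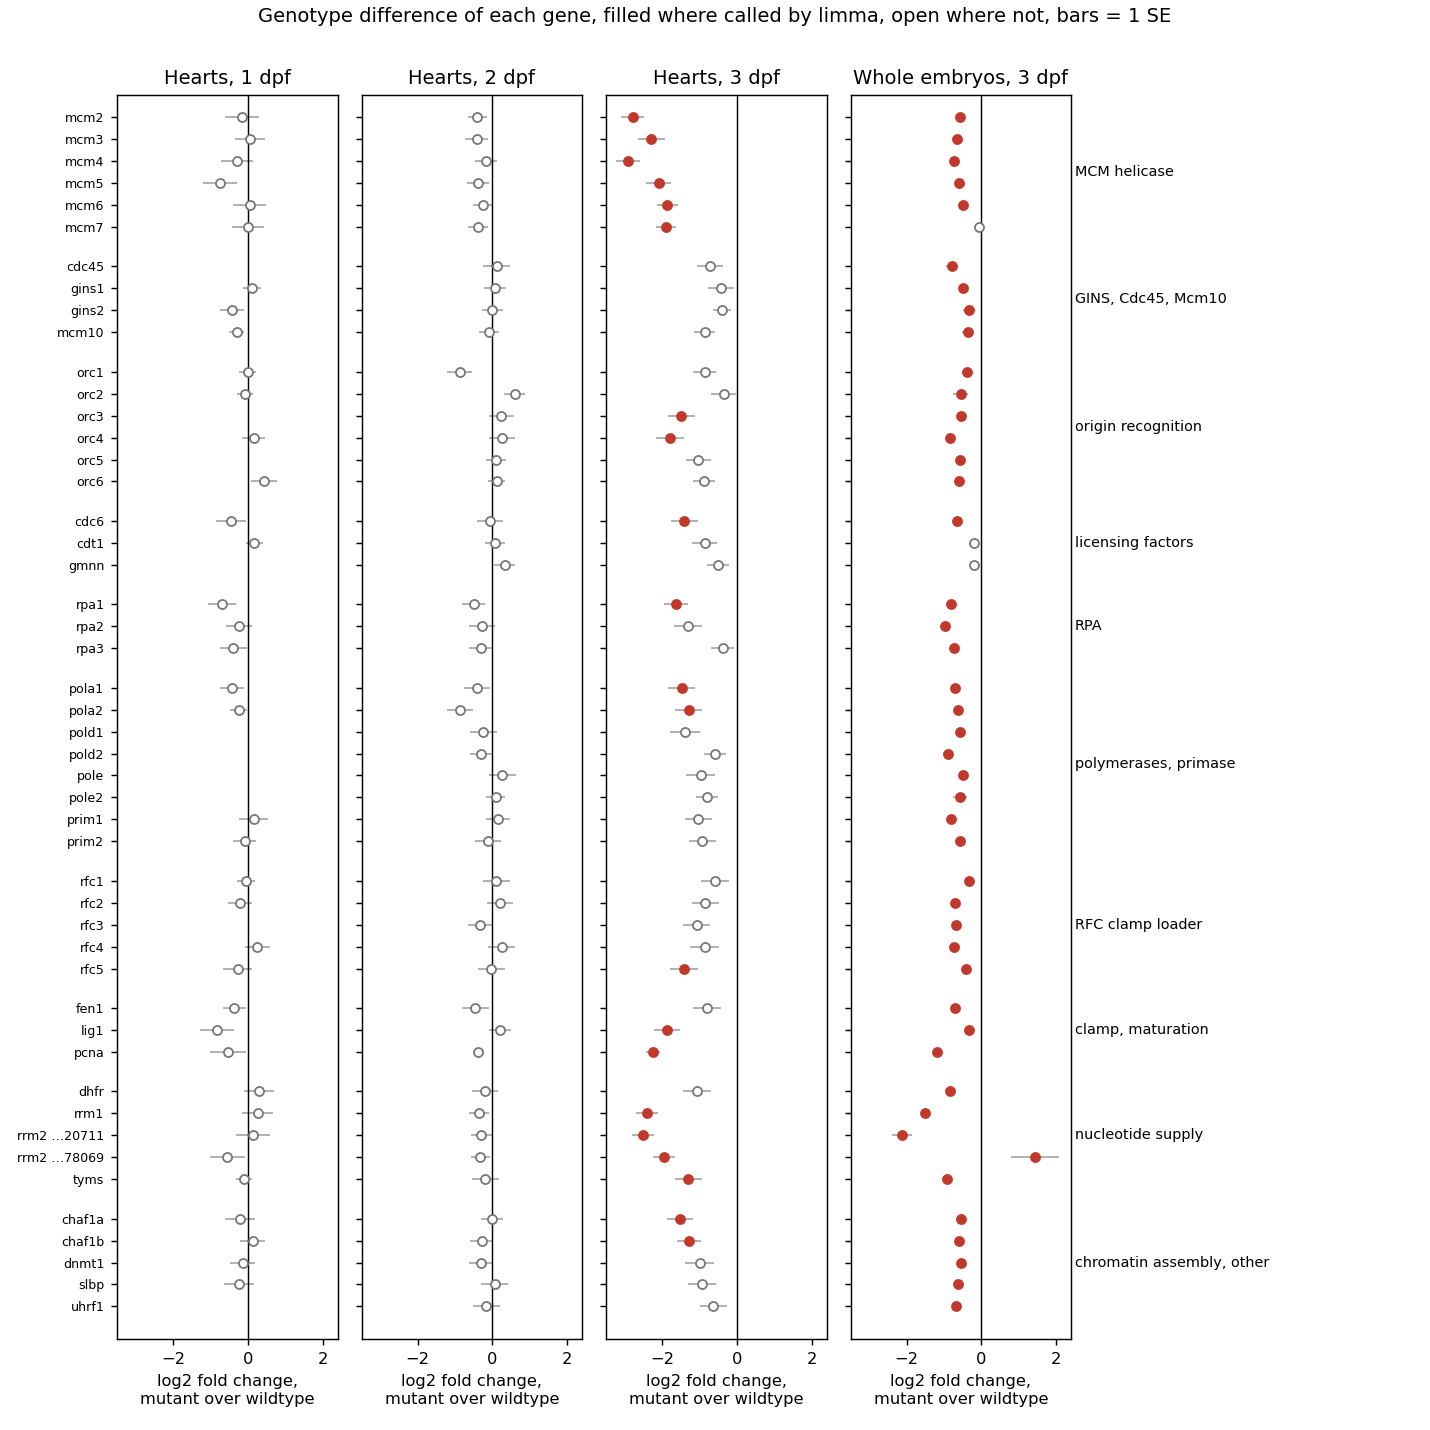
Log2 fold change, mutant over wildtype, of each replication gene, grouped by complex, in hearts of each age and in whole embryos. Points are limma estimates, bars are the standard error, and filled points passed the threshold of that comparison. In 3 dpf hearts all 48 values lie below 0, from -2.91 to -0.36, and in embryos 47 of 48 do, the exception being rrm2 ENSDARG00000078069.

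Other gene lists moved in the same hearts. Of 8 mitosis genes tested, 7 were called lower, and their summed level was 2.11 to 13.5 normalized counts in mutant hearts, against 34.2 to 63.1 in wildtype hearts. The 2 epicardial markers summed to 0 to 2.23 in mutant hearts, against 0 to 17.1 in wildtype hearts, and tcf21 was called lower. The 7 cardiomyocyte markers overlapped between the groups (678.6 to 1091 in mutant and 846.4 to 1381 in wildtype hearts, 1 called higher and 2 lower), as did the 7 endocardial (62.7 to 93.5 and 36.1 to 110.1) and the 7 blood markers (86.6 to 436.8 and 56.0 to 318.8), with 0 of either list called in the limma test. The highest count in every heart of this age was at the limit of 256 UMIs per gene. Whether any of the markers reached that limit, which would hold down its value in deeper hearts, was not examined. The mitosis genes bub1 and ccnb2 were in no heart table, and the listed epicardial marker wt1a matched no gene. No marker in the table was at 0 in every heart of both genotypes, as the detection filter had fixed in advance. Whether any was at 0 in all hearts of a single genotype was not examined. The part of any of these lists in the decrease of the replication genes was not tested.

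The change of the genotype difference between ages was tested next. The 3 comparisons share hearts, since each age enters 2 of them, so their values stand side by side without being added up. Between 1 and 2 dpf 0 of 38 members changed at an adjusted p under 0.05 (limma with weights per age), where 0.106% of all genes became more positive and 0% more negative, and edgeR found 0. An unadjusted p under 0.05 was found for 2 members, or 5.26%, against 6.85% of all genes. Between 2 and 3 dpf the difference became more negative in 13 of 48 members and more positive in 0, against 1.7% and 1.18% of all genes, and the median change was -1.06, against -0.03 for all genes. Between 1 and 3 dpf 9 of 38 became more negative and 0 more positive, against 1.02% and 1.35% of all genes, with a median of -1.09, against 0.09 for all genes. Each age was normalized separately, and the deposited values of all genes stepped up by a median log2 of 1.07 from 1 to 3 dpf in wildtype hearts. Adding 1 to each value thus shrank differences at 1 dpf more than at later ages. An equal proportional difference at 1 dpf and later can therefore read as more negative later. EdgeR on the recovered counts did not call mcm6 and mcm7 over this span. The 13 genes of the step from 2 to 3 dpf were the 6 MCM genes, pcna, lig1, rrm1, both rrm2 genes, orc3 and orc4. Other lists moved in the same step, with 5 of 8 mitosis genes, 2 of 7 cardiomyocyte markers, 1 of 4 hatching gland and 1 of 5 skeletal muscle markers more negative. At 2 dpf all 4 hatching gland markers (summed 30.6 to 200.4 normalized counts in mutant and 14.9 to 97.1 in wildtype hearts) and 3 of 4 yolk syncytial layer markers (71.2 to 329.2 and 33.3 to 157.1) were called higher in mutant hearts. The part of these lists in the change of the members was not tested.

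For pcna the genotype difference moved by -1.87 ± 0.23 between 2 and 3 dpf on the log2 scale (SE, limma, adjusted p = 8.9e-09). The corresponding moves were -2.73 ± 0.44 for mcm4 (limma, adjusted p = 1.2e-05) and -2.38 ± 0.39 for mcm2 (limma, adjusted p = 1.4e-05). Among nucleotide supply genes, rrm2 ENSDARG00000020711 moved by -2.21 ± 0.43 (limma, adjusted p = 0.00036) and rrm1 by -2.06 ± 0.40 (limma, adjusted p = 0.00039). The ligase gene lig1, which was at 4.77 in the median mutant and 3.91 in the median wildtype heart at 2 dpf, moved by -2.07 ± 0.44 (limma, adjusted p = 0.0015). Over the whole span from 1 to 3 dpf, mcm2 moved by -2.63 ± 0.49 (limma, adjusted p = 0.00069), and rrm1 by -2.67 ± 0.52 (limma, adjusted p = 0.0010). Of the other MCM genes, mcm4 moved by -2.61 ± 0.52 (limma, adjusted p = 0.0012) and mcm3 by -2.33 ± 0.51 (limma, adjusted p = 0.0034). The change of rrm2 ENSDARG00000020711 was -2.64 ± 0.55 (limma, adjusted p = 0.0026) and that of orc4 -1.94 ± 0.46 (limma, adjusted p = 0.0083). The same span gave -1.71 ± 0.53 for pcna, which did not pass (limma, adjusted p = 0.062). Among the mutant hearts at 1 dpf, pcna varied from 0 to 22.04 normalized counts.

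**Figure D3:**
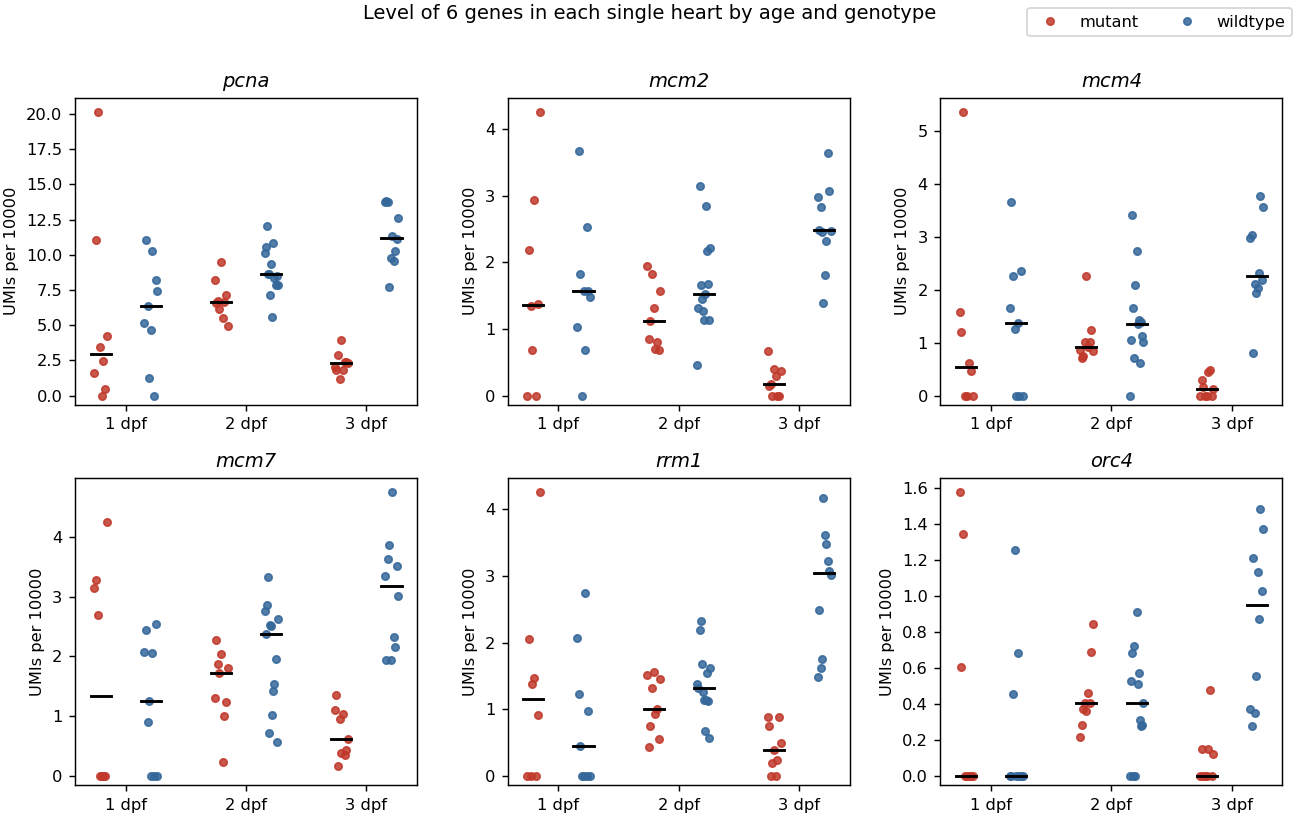
Level of 6 replication genes in each heart at 1, 2 and 3 dpf, as UMIs per 10000 UMIs of the genes in all 3 heart tables. Each point is 1 heart, the bar is the median, and mutants stand left of wildtypes at each age. At 3 dpf the groups lie apart for pcna, with mutant hearts at 1.15 to 3.92 and wildtype hearts at 7.73 to 13.8, whereas they overlap at 2 dpf.

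The course with age within each genotype was described without a test, because age and the handling of the hearts of an age cannot be told apart. Each step is a difference of log2 (group mean + 1), which understates the steps of genes with few UMIs. In wildtype hearts, on the scale of UMIs per 10000, the median log2 difference of the 38 shared members was -0.03 between 1 and 2 dpf (16 of 38 higher later) and 0.20 between 2 and 3 dpf (32 of 38 higher later), against 0.01 and -0.0041 for all genes. In mutant hearts it was -0.11 (14 of 38) and -0.26 (0 of 38), against 0.04 and -0.02 for all genes. Of all genes, 51.4% and 48.9% stood higher later in wildtype hearts, and 53.3% and 45.7% in mutant hearts. So on this scale, between 2 and 3 dpf, most members stood higher in wildtype hearts at the later age, and all 38 stood lower in mutant hearts. On the normalized counts as deposited, the step from 1 to 2 dpf was 0.84 in mutant and 0.99 in wildtype hearts, close to that of all genes (1.14 and 1.08), and the step from 2 to 3 dpf was -0.78 in mutant and 0.41 in wildtype hearts. After thinning to equal depth the step from 2 to 3 dpf was -0.10 in mutant hearts, with 5 of 38 members higher later, against 34.9% of all genes. In wildtype hearts it was 0.12, with 21.5 of 38 higher later, against 43.8% of all genes (medians of 10 draws). Both the wildtype rise and the mutant fall were thus smaller at this depth, which was 2350 UMIs per heart over the shared genes.

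The complexes followed this course unequally. The summed MCM genes were at medians of 7.47, 6.52 and 2.14 UMIs per 10000 in mutant hearts at 1, 2 and 3 dpf, against 8.63, 8.67 and 13.3 in wildtype hearts. Nucleotide supply was at 3.95, 4.38 and 1.43 in mutant hearts, against 6.28, 5.65 and 10.5 in wildtype hearts. Clamp and Okazaki fragment genes were at 3.30, 8.06 and 2.63 in mutant hearts, against 8.87, 9.85 and 13.1 in wildtype hearts. In these sets the wildtype median was highest and the mutant median lowest at 3 dpf. The summed polymerase and primase genes were at 1.24, 0.910 and 0.445 in mutant hearts, against 2.06, 1.38 and 2.08 in wildtype hearts, where 1 dpf and 3 dpf were nearly the same. On this scale, over the shared members, mutant and wildtype hearts at 3 dpf did not overlap in 7 of the 10 sets, and overlapped in the GINS, RFC and chromatin sets. In summed normalized counts over all 48 members the GINS set was the one that overlapped.

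In whole embryos at 3 dpf the same genes were lower in mutants by smaller factors. The summed level of all members was 10127 in the lowest, 10854 in the median and 11979 normalized counts in the highest mutant library, against 16613, 18151 and 18894 in wildtype libraries, with no overlap, and the mutant mean was 60.8% of the wildtype mean. Of 48 members 44 were called lower and 1 higher at an adjusted p of at most 0.1 (limma), where 27.3% of all 22685 genes were lower and 28.7% higher. The test had no batch term, although the paper removed a batch effect from its embryo data. The median log2 fold change was -0.60, against 0.03 for all genes. In 31 members the highest mutant library was below the lowest wildtype library, against 9.55% of all genes. By more than 2-fold, 3 members were called lower and 0 higher (limma treat), against 0.908% and 1.01% of all genes. When libraries were rescaled to the same total of reads, the median of all genes was 0.14 and that of the members -0.50.

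The 4 largest decreases in embryos were in nucleotide supply, the clamp and RPA. The gene rrm2 ENSDARG00000020711 was at 58.4, 148.5 and 218.5 normalized counts in the lowest, median and highest mutant library, against 212.1, 551.5 and 787.8 in wildtype libraries. Its log2 fold change was -2.13 ± 0.27 (SE, limma, adjusted p = 2.4e-06), and the overlap came from wildtype library 11. The sum of both rrm2 genes, described below, was at 0.43 of the wildtype mean. For rrm1 the values were 238.7, 269.95 and 352.8 in mutant libraries, against 741.1, 790.3 and 905.4 in wildtype libraries, without overlap (-1.50 ± 0.08, limma, adjusted p = 1.4e-11). The clamp gene pcna was at 991.7, 1057 and 1212 in mutant libraries, against 2290, 2462 and 2600 in wildtype libraries. The groups lay far apart, with a log2 fold change of -1.20 ± 0.06 (limma, adjusted p = 1.7e-12). The RPA gene rpa2 was at 73.7, 98.7 and 116.8 in mutant libraries, against 138.5, 192.6 and 231.97 in wildtype libraries (-0.97 ± 0.12, limma, adjusted p = 1.9e-06), also without overlap. The 3 genes called lower by more than 2-fold were the first 3 of these, and pcna was no longer among them after rescaling to the same total. The listed gene tk1, which was not a member, was at 48.5 ± 5.70 in mutant and 107.9 ± 13.0 in wildtype libraries (SD, n = 7 and 8), a log2 fold change of -1.14 (limma, adjusted p = 5.5e-08).

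Across the complexes in embryos, the summed level in mutants was 41.5% of the wildtype mean for nucleotide supply, 47.1% for the clamp set, 56.2% for RPA, 63.8% for polymerases and primase and 65.8% for the chromatin set. The shares were 66.3% for ORC, 68.4% for GINS, Cdc45 and Mcm10, 68.8% for RFC, 68.9% for MCM and 77.7% for licensing factors. Within the MCM set, mcm7 was at 346, 442 and 615 normalized counts in mutant embryos, against 308, 505 and 554 in wildtype embryos (log2 fold change -0.05 ± 0.13, limma, adjusted p = 0.76). It overlapped fully and was not called, whereas the other 5 subunits were, with log2 values of -0.75 to -0.49. The licensing gene cdt1 (-0.20, limma, adjusted p = 0.17) and its inhibitor gmnn (-0.19, limma, adjusted p = 0.23) were the other members not called.

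Cell type markers moved with the embryo comparison too. The 10 mitosis genes were all called lower (summed 3261 to 3662 normalized counts in mutant and 6099 to 7454 in wildtype embryos), as were all 7 cardiomyocyte markers (1315 to 2086 and 2441 to 3774). Of 6 blood markers tested 5 were higher (10869 to 18099 and 3295 to 10020, summed over 7 markers). Of 4 epidermal markers 3 were higher, as were all 4 hatching gland markers (76.1 to 336.6 and 19.4 to 61.6). Higher too were 2 of 7 endocardial and 1 of 5 skeletal muscle markers. Of 5 neuron markers 3 were higher and 1 lower, of 4 yolk syncytial layer markers 2 were lower, and of 2 epicardial markers 0 were called. Among all genes 28.7% were higher and 27.3% lower. No defining marker of a list was at 0 in every embryo library of both genotypes. Whether any was at 0 in all libraries of a single genotype was not examined. The part of these lists in the embryo result was not tested.

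The small subunit of ribonucleotide reductase showed a pattern that a single gene did not give. The gene rrm2 ENSDARG00000078069 was the only member higher in mutant embryos, at 47.0, 127.4 and 267.5 normalized counts in the lowest, median and highest mutant library, against 1.81, 48.4 and 366.0 in wildtype libraries. Its log2 fold change was 1.44 ± 0.65 (SE, limma, adjusted p = 0.072), the groups overlapped, and neither edgeR nor DESeq2 called it. The share of this gene in the sum of both rrm2 genes varied from 17.7 to 80.8% among mutant libraries and from 0.323 to 63.3% among wildtype libraries. Wildtype library 11 was at 63.3% and wildtype library 13 at 0.323%, with the other wildtype libraries between 5.32 and 20.3%. Genes with the same symbol may share reads, and how the counting divided them is uncertain, so their sum was also formed, after the values had been seen and without a test. The sum was at 182.0, 285.3 and 355.6 in mutant libraries, against 562.1, 623.3 and 833.8 in wildtype libraries. No mutant library reached the lowest wildtype library, and the mutant mean was 0.43 of the wildtype mean. In 3 dpf hearts the sum was at 0.932, 5.72 and 9.32 in mutants, against 19.7, 26.7 and 42.8 in wildtypes, a ratio of 0.173.

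**Figure D4:**
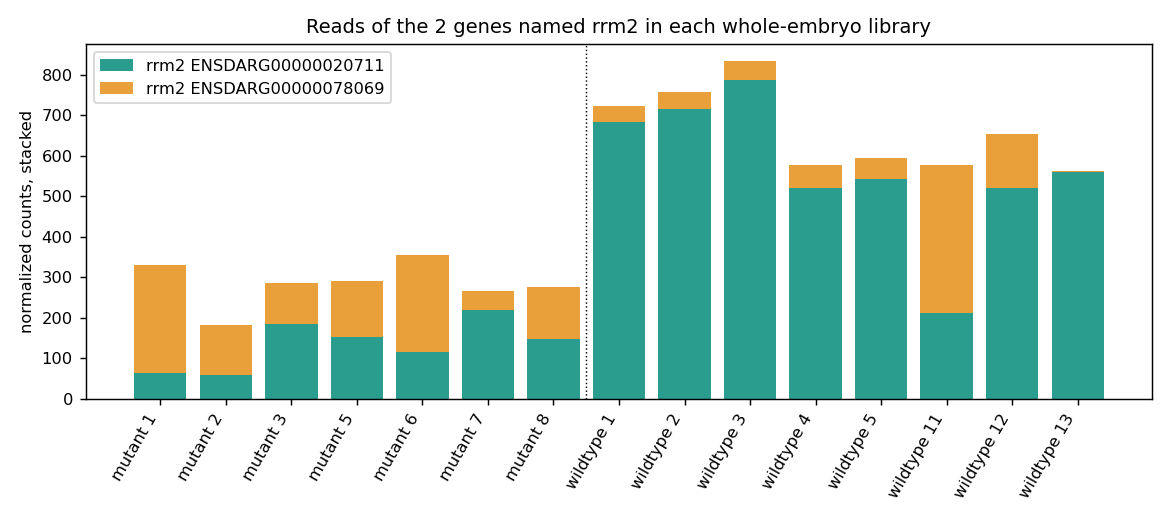
Normalized counts of both rrm2 genes in each whole embryo library, with mutant libraries left of wildtype libraries. The stacked bars start at 0, each bar is 1 library, and the total height is the sum of both genes. The sums are 182.0 to 355.6 in mutants and 562.1 to 833.8 in wildtypes, while the division between both genes varies from library to library.

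Other genes of the pathway, a set of 65 that were not members, were examined in the same way. In hearts at 3 dpf 6 of 57 tested were called lower and 1 higher, against 2.4% and 2.96% of all genes, with a median log2 fold change of -0.57. The lower ones were the histone chaperone and chromatin genes ssrp1a (-1.73), nasp (-1.67), asf1ba (-1.44), cdca7a (-1.45) and hells (-1.37), and the S phase cyclin gene ccna2 (-1.55). The gene pold4, for a small subunit of polymerase delta, was the one that was higher, at a mean of 4.64 ± 2.02 normalized counts in mutant and 1.30 ± 1.79 in wildtype hearts (SD, n = 9 and 10; log2 fold change 1.55 ± 0.36, limma, adjusted p = 0.0011). At 1 dpf 0 of 44 and at 2 dpf 0 of 55 passed. The genotype difference changed between 2 and 3 dpf in 1 of 53, ssrp1a, which became more negative by -1.81. Between 1 and 3 dpf it became more negative in 3 of 42, cad, hells and ccna2, and more positive in pold4 (1.74). In whole embryos 43 of 65 were lower and 6 higher, against 27.3% and 28.7% of all genes, with a median of -0.42. The largest decreases there were those of the GINS subunit gene gins4 (-1.32), of chtf8 (-1.25), of ccna2 (-1.22) and of supt16h (-1.06), whereas the purine and pyrimidine synthesis genes ctps1b (0.76) and paics (0.65) rose. The embryo value of pold4 was 0.12 ± 0.11 (limma, adjusted p = 0.41).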

How the data were processed

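Whole embryos were profiled by the authors with RNA-seq of total RNA depleted of ribosomal RNA, mapped with STAR to GRCz10, and single hearts by poly-T primed CEL-seq with UMIs from a random barcode of 4 bases, which allows 256 UMIs per gene and library. In every heart at 2 and 3 dpf the highest count was at this limit. Whether the cell type markers reached it was not examined. The deposited values are a signal, counts divided by 1 size factor per library (DESeq2 for embryos, Monocle for hearts). The hearts of each age were normalized separately, so their deposited values are not on 1 scale across ages. According to the paper, its own embryo test followed the removal of a batch effect with RUVSeq. The main embryo test here used the deposited values without a batch term, so its p-values do not allow for such an effect. The authors also removed hearts far from the mean mRNA amount and kept genes detected in a minimum share of the hearts of an age. Dividing by the value of 1 read in each library gave whole reads or UMIs for 100% of values in all libraries (tolerance 0.001 reads), and 0 heart columns remained unmapped. The deposited ChIP peaks hold the authors' scores and positions and were not used here.

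Values were tested as log2 (normalized count + 1) with limma 3.58.1 (R 4.3.3): in embryos over genes with a mean of at least 5 (adjusted p of at most 0.1, and treat against a log2 fold change of 1), in hearts per age over all genes (adjusted p under 0.01), and for the change of the genotype difference between ages with weights per age (adjusted p under 0.05). Single hearts were not weighted. Adjusted p-values are Benjamini-Hochberg values over all genes of a table. The count tests of edgeR 4.0.16 and DESeq2 1.42.0 on the recovered counts, other pseudocounts, filters and scalings, thinning, a depth covariate, a replicate block and leaving out single libraries were alternatives. The models were also run on simulated counts in which only genes with an expected count of at least 5 changed. Many members had fewer UMIs per heart, so that run does not cover them. Leaving out single hearts from the changes with age was chosen after seeing the data. No pair of libraries was a repeat of the other.

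Members and lists were chosen with earlier results of these data known. Per library values are given for up to 6 members with the lowest adjusted p in each heart comparison or change with age, the 4 largest increases and decreases in embryos, and the member with most counts in 2 dpf hearts in each complex. Further members are named with their values only.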

Additional observations from a re-analysis of the deposited data

Results flagged for a closer look

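Single libraries far from the rest of their group were found in 27 of 194 sets of values examined (13.9%). The cutoff gives about 1 in 20 for independent, normally distributed values. Many of these sets hold few UMIs and some share genes, so both rates cannot be compared. The 13 wildtype hearts at 2 dpf were not examined. Values are normalized counts.

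Mutant hearts at 1 dpf held 13 of these. Heart 3 was far above the others in the summed polymerase and primase genes (5.88, others 0 to 2.35), in summed nucleotide supply (42.6, others 2.03 to 15.6), and in mcm4 (5.88, others 0 to 2.03). The same heart was high in rrm2 ENSDARG00000020711 (19.1, others 0 to 5.21), rrm2 ENSDARG00000078069 (20.6, others 0 to 6.25), prim2 (2.94, others 0 to 0.893) and rfc5 (2.94, others 0 to 1.14). Heart 9 was high in the summed GINS set (4.24, others 0 to 1.19), in the summed licensing factors (4.24, others 0 to 1.94) and in cdc6 (4.24, others 0 to 1.19). This heart held 2453 UMIs in all, and 4.24 is the value of 1 UMI in it, so that each of these rests on 1 UMI, the same one for the licensing factors and cdc6. Heart 2 was high in summed RPA (4.32, others 0 to 2.03) and rpa1 (1.94, others at 0), and heart 1 in summed ORC (10.2, others 0 to 2.98). Among wildtype hearts of that age, heart 4 was high in orc4 (1.605, the value of 1 UMI in this heart, others 0 to 0.764) and heart 2 in cdc6 (4.61, others 0 to 1.83).

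Among older mutant hearts, heart 31 at 2 dpf was high in mcm4 (10.4, others 3.34 to 5.85) and heart 32 in cdc45 (4.38, others 0 to 2.05). At 3 dpf mutant heart 42 was high in orc4 (2.23, others 0 to 0.717) and mutant heart 43 in rpa2 (2.07, others 0 to 0.717).

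In embryos, mutant library 6 was high in the summed GINS set (259.4, others 202.6 to 224.6) and in summed RFC (833.0, others 734.1 to 768.8). Wildtype library 1 was high in the summed GINS set (396.8, others 282.8 to 332.2) and in cdc45 (181.5, others 94.8 to 129.6), and wildtype library 13 in mcm3 (664.5, others 514.4 to 573.1). Wildtype library 3 was low in rfc5 (252.8, others 297.4 to 324.9). Wildtype library 11 was low in rrm2 ENSDARG00000020711 (212.1, others 520.7 to 787.8) and high in rrm2 ENSDARG00000078069 (366.0, others 1.81 to 132.4).

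The genotype difference itself changed with age in some members (limma, test of the difference between ages). Between 2 and 3 dpf the log2 change was -2.73 for mcm4, -2.38 for mcm2, -1.87 for mcm3, -1.70 for mcm5, -1.61 for mcm6, -1.51 for mcm7, -1.87 for pcna and -2.07 for lig1. It was -2.06 for rrm1, -2.21 for rrm2 ENSDARG00000020711, -1.62 for rrm2 ENSDARG00000078069, -1.72 for orc3 and -2.04 for orc4. Between 1 and 3 dpf it was -2.63 for mcm2, -2.33 for mcm3, -2.61 for mcm4, -1.91 for mcm6, -1.91 for mcm7, -2.67 for rrm1, -2.64 for rrm2 ENSDARG00000020711, -1.94 for orc4 and -1.42 for chaf1b.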

How the results depend on the processing

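No member called in a comparison and no median genotype difference of the members reversed its direction under the alternatives run for it. The direction of members that were not called was not followed. In embryos 40 to 45 members were called under alternatives other than leaving out a library (45 as reported) and 43 to 46 with 1 library left out, and the median log2 fold change was -0.63 to -0.58 with 1 library left out and -0.50 after rescaling to the same total. By more than 2-fold, 2 or 3 members were called in embryos, also with 1 library left out. In 1 and 2 dpf hearts 0 members were called under every alternative run, with medians of -0.24 to -0.11 and -0.27 to -0.09 when 1 heart was left out and -0.41 with DESeq2 at 2 dpf. At 3 dpf 19 to 26 members were called, 17 to 22 with 1 heart left out, and 10 when hearts were thinned to the shallowest, with all 10 among the 21. The median at 3 dpf was -1.21 to -0.99 with 1 heart left out, -1.46 with a pseudocount of 0.5, -1.40 over genes with a mean of at least 1, -1.30 with a covariate for how many genes each heart had above 0, -2.13 with edgeR and -2.33 with DESeq2. The change from 1 to 2 dpf gave 0 members throughout, that from 2 to 3 dpf 13 or 14, and that from 1 to 3 dpf 6 to 10, the 6 being without mutant heart 1 of 1 dpf or with a pseudocount of 0.5. The wildtype course was 0.99, 0.41 and 1.23 from 1 to 2, 2 to 3 and 1 to 3 dpf on normalized counts as deposited, against -0.03, 0.20 and 0.09 on UMIs per 10000, so that the first of these changed sign. The hearts of each age were normalized separately, and on the deposited counts all genes stepped by 1.08, -0.0030 and 1.07. The members' first step was thus below that of all genes. The causes of the other shifts were not tested.

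Some calls were lost when any of several single libraries was left out (limma, adjusted p without the library in brackets). At 3 dpf that of cdc6 was lost without any of mutant hearts 37 to 41, 43 and 44 or wildtype hearts 15 and 23 (0.010 to 0.012), and that of rfc5 without mutant hearts 37, 40, 43 and 44 or wildtype hearts 16, 22 and 24 (0.013 to 0.017). That of pola2 was lost without mutant hearts 36, 38 to 42 and 44 or wildtype hearts 15, 16 and 21 to 23 (0.011 to 0.021), and that of tyms without mutant hearts 36 and 38 to 43 or wildtype hearts 17, 19, 20 and 22 to 24 (0.011 to 0.019). With all hearts kept, the calls of orc3 and pola2 were lost with the covariate for detected genes. Those of pola2 and tyms were lost with a pseudocount of 0.5. In embryos gins2 was lost without mutant libraries 3, 5, 7 and 8 or wildtype libraries 2, 3 and 11 to 13 (0.11 to 0.18), mcm10 without mutant libraries 1 and 7 or wildtype libraries 1, 2 and 12 (0.10 to 0.12), and rrm2 ENSDARG00000078069 without mutant libraries 1 and 6 or wildtype libraries 1 and 13 (0.10 to 0.14). The call of pcna by more than 2-fold was lost without mutant libraries 1, 3 and 5 or wildtype libraries 1 to 3 (0.10 to 0.15). It was also lost with a pseudocount of 10, a replicate block, rescaling to the same total, or wildtype libraries 1 to 5 only. Of the changes from 1 to 3 dpf, mcm7 was lost without mutant hearts 1, 2 and 9 of 1 dpf or mutant heart 38 of 3 dpf (0.052 to 0.058), mcm6 without mutant hearts 1, 3 and 9 or wildtype hearts 2, 4, 5 and 7 of 1 dpf or mutant hearts 40, 41 and 44 of 3 dpf (0.054 to 0.069) and chaf1b without any of 26 of the 36 hearts (0.055 to 0.093).

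Replicate numbers in the labels did not pair the samples. Correlations of same-numbered mutant and wildtype samples were -0.16 to 0.03 in embryos and -0.08 to 0.04 in 1 dpf hearts. With the replicate number as a block, 40 members were called in embryos (median -0.63), 2 by more than 2-fold, and 0 in 1 dpf hearts (median -0.14). No paired analysis was possible for 2 and 3 dpf hearts because the genotypes share no replicate numbers there.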
